A study of Macaca fascicularis with 16 samples.

Results

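The abdominal aorta was set against the thoracic aorta in RNA sequencing counts of normal young cynomolgus monkeys (Macaca fascicularis). All 16 of the 16 libraries of the series entered the comparison, chosen by the region in their labels. The abdominal side held 8 libraries, 4 of the infrarenal and 4 of the suprarenal aorta, and the thoracic side held 8 libraries, 4 of the descending and 4 of the ascending aorta. All were labelled as baseline aorta, and no treatment, genotype or strain is named. Each value below is the mean of the 2 abdominal region means minus the mean of the 2 thoracic region means on the log2 scale, so that a positive value means a higher level in the abdominal aorta. The labels do not say whether the libraries of a region came from separate animals, so the p-values measure only the spread between these libraries, which may be technical.

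The aorta carries blood from the heart through the chest and, below the diaphragm, through the abdomen, where the renal arteries part the suprarenal from the infrarenal segment. Its wall is made mainly of smooth muscle cells between elastic lamellae, lined by endothelium and wrapped in an adventitia of fibroblasts, nerves, small vessels and fat. In mouse and chick embryos the smooth muscle of the ascending aorta comes from neural crest and the second heart field, and that of the descending and abdominal aorta from mesoderm of the trunk. HOX genes, which lie in clusters and encode transcription factors of position along the body axis, are known to keep regional patterns in adult vessels. The abdominal wall is known to hold less elastin relative to collagen than the thoracic wall, and aneurysms of the 2 segments differ in their heritable and acquired risk.

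The libraries held 14402824 to 21407514 counts each. Levels are given as CPM, counts scaled to a common library size with TMM factors. The smooth muscle genes MYH11 (2952 to 14106 CPM) and ACTA2 (3809.8 to 18555 CPM) were abundant in all 16 libraries. Some libraries stood apart. Infrarenal library 1 had a TMM factor of 0.736 against 0.977 to 1.08 in the others, and a mean of 77 ribosomal protein genes 1.36 log2 units above the average library. MYH11 was lowest in suprarenal library 3 (2952 CPM) and ascending library 4 (3985 CPM), against 5680.0 to 14106 CPM elsewhere. In bulk tissue, fewer cells of a type and less RNA per cell cannot be told apart.

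Of 15926 genes tested, 336 (2.11%) passed an adjusted p of 0.05 in the quasi-likelihood test of edgeR. Of these, 150 (0.942%) were higher and 186 (1.17%) were lower in the abdominal aorta, and 1627 genes had an unadjusted p under 0.05. The median log2 difference was 0.04 over all genes tested, and the median size among the genes called was 1.49. At least 1 log2 unit separated the sides for 109 of the higher and 130 of the lower genes. The plot of effect size against p shows HOX genes, NOTCH3 and COL8A1 at the upper right and RBFOX1, ATP1B1 and KRT8 at the upper left. Without suprarenal library 2 the count of calls was 214, of which 91 were higher and 123 lower. Without infrarenal library 1, suprarenal library 3 and ascending library 4 together it was 920, of which 441 were higher and 479 lower. With the replicate number as a block, which the reported fit leaves out, it was 546, of which 204 were higher and 342 lower.

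**Figure D1:**
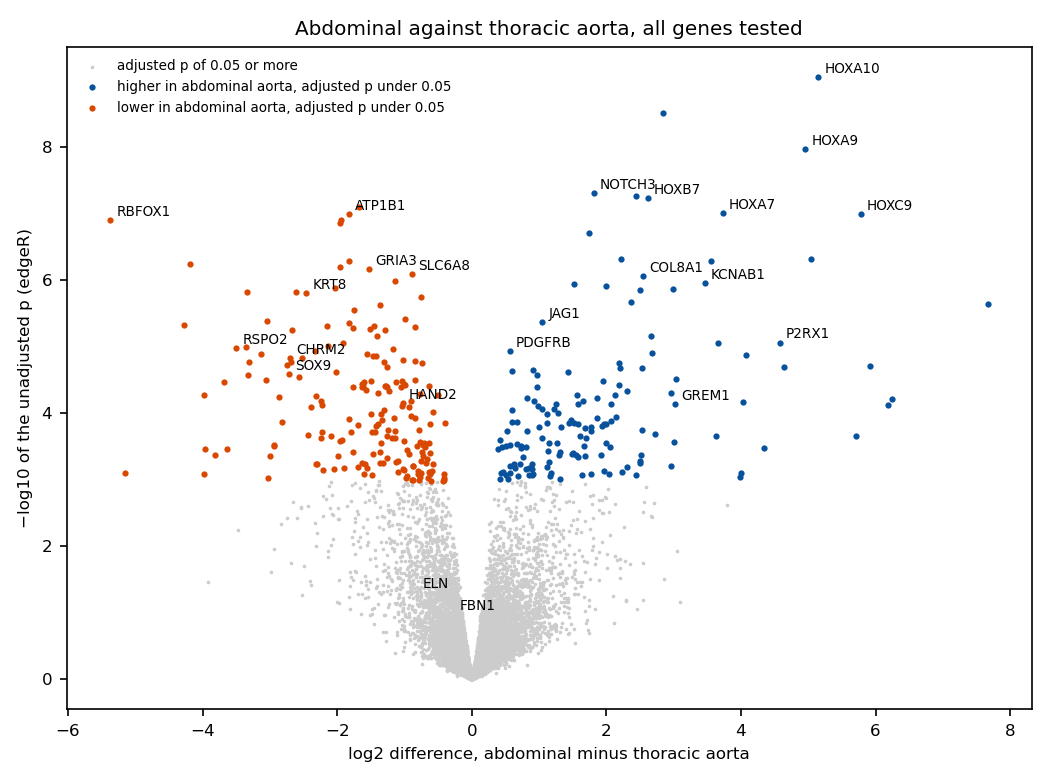
Each point is 1 of 15926 genes, with the log2 difference of the abdominal minus the thoracic aorta on the x axis and −log10 of the unadjusted edgeR p on the y axis. The 150 blue points are genes higher and the 186 orange points are genes lower in the abdominal aorta at an adjusted p under 0.05, and HOXA10 has the smallest p.

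Most genes called had differences of 1 sign along the vessel. The 3 differences between neighbouring regions add up to the total span of the vessel. The abdominal against thoracic difference is a weighted sum of them, so genes called for it tend to have steps of its sign. The steps also share its libraries and are set side by side here as a description. Of the 150 higher genes, 114 had a positive value at all 3 steps. Of the 186 lower genes, 127 had a negative value at all 3. Of all genes tested, 13.1% kept 1 sign along the vessel, but these were not picked by the abdominal against thoracic difference. The step with the greatest change in the direction of the call was infrarenal against suprarenal for 147 of the 186 lower genes, descending against ascending for 27 and suprarenal against descending for 12. For the 150 higher genes these numbers were 72, 51 and 27. For all 6868 genes tested with a negative difference, called or not, they were 2705, 1635 and 2528. For all 9058 with a positive difference they were 3321, 2589 and 3148, so infrarenal against suprarenal was also the most frequent step there. The median of the lower genes was -1.19 for infrarenal minus suprarenal, -0.55 for suprarenal minus descending and -0.29 for descending minus ascending. The median of the higher genes was 0.93, 0.67 and 0.49 at the same steps.

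Tested alone in the same fit, the steps gave few calls. Infrarenal against suprarenal gave 32 (0.201%), of which 3 were higher and 29 lower. Descending against ascending gave 18 (0.113%), of which 14 (0.0879%) were higher and 4 (0.0251%) lower. Suprarenal against descending, the pair on either side of the diaphragm, gave 0 calls (0%) with edgeR and 0 with DESeq2, while 264 genes had an unadjusted edgeR p under 0.05. When the suprarenal region alone was set against the 2 thoracic regions, 11 genes were called and all 11 were higher. They were HOXA7 (3.64), HOXA9 (3.95), HOXA10 (3.86), HOXB7 (2.31), HOXC4 (1.82), HOXC6 (2.99), HOXC9 (5.0), NKAIN2 (4.03), NOTCH3 (1.27) and 2 genes without a descriptive symbol. NKAIN2, a protein that binds the sodium pump, was chosen after its values were seen. Without infrarenal library 2 the infrarenal against suprarenal count was 3, and without ascending library 3 the descending against ascending count was 7. With both abdominal regions against the descending region alone, 74 genes were called, 16 higher and 58 lower.

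The 8 abdominal libraries did not overlap the 8 thoracic libraries for 16 genes, 0.1% of those tested. Of these, 5 (0.0314%) were higher and 11 (0.0691%) lower in the abdominal aorta, and 5 and 10 of them were called. With a gene name and a mean log2 CPM of at least 1, the called genes were HOXA10, GPR21, IQSEC2 and CTDSPL among the higher and ATP1B1, CACNB4, PDE8B, GRIA3, USH1G, FAM131B, SRRM3 and SLC6A8 among the lower. HOXA10 (GeneID 102133638), a transcription factor of posterior body position, had 40.0, 42.3, 42.5 and 24.8 CPM in the infrarenal and 3.15, 13.3, 5.71 and 2.66 CPM in the suprarenal libraries. It had 2.26, 1.26, 2.55 and 1.39 CPM in the descending and 0.0627, 0.185, 0.0605 and 0.0604 CPM in the ascending libraries (log2 difference 5.15, SE 0.39, adjusted p = 1.42e-05). The lowest abdominal value, 2.66 CPM in suprarenal library 4, lay just above the highest thoracic value, 2.55 CPM in descending library 3, while infrarenal and ascending libraries were far apart.

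GPR21 (GeneID 102117894), an orphan G protein-coupled receptor, had 6.25, 15.4, 8.26 and 15.4 CPM in the infrarenal and 3.90, 3.68, 2.86 and 3.54 CPM in the suprarenal libraries. It had 2.2, 0.723, 1.15 and 1.55 CPM in the descending and 1.25, 1.05, 1.03 and 1.87 CPM in the ascending libraries (log2 difference 2.21, SE 0.27, adjusted p = 0.000466). Descending minus ascending was 0.11 (SE 0.38), and the infrarenal libraries were above the suprarenal ones. The annotated span of GPR21 overlaps that of RABGAP1, whose own difference was 0.33 (adjusted p = 0.0748), and reads of the pair may not be told apart. IQSEC2 (GeneID 102117717), an exchange factor for ARF proteins, ran from 22.8 to 45.0 CPM in abdominal libraries (median 27.2) and 16.2 to 22.8 CPM in thoracic libraries (median 21.3) (0.53, SE 0.11, adjusted p = 0.016). CTDSPL (GeneID 102141522), a small phosphatase, ran from 48.1 to 70.4 CPM in abdominal libraries (median 53.2) and 35.8 to 47.9 CPM in thoracic libraries (median 43.2) (0.41, SE 0.09, adjusted p = 0.0201). For IQSEC2 the values were 0.49 from infrarenal against suprarenal, 0.14 from suprarenal against descending and 0.29 from descending against ascending, and for CTDSPL 0.30, 0.19 and 0.16 at the same steps. The infrarenal against suprarenal step was the largest of the 3 for both genes. The call of CTDSPL was lost in 5 of the 16 refits on 15 libraries (largest adjusted p 0.0566, without ascending library 1).

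Among the lower genes without overlap, ATP1B1 (GeneID 101866484), the beta subunit of the sodium-potassium pump, had 9.02, 12.2, 20.4 and 15.4 CPM in the infrarenal and 55.2, 27.1, 27.2 and 42.6 CPM in the suprarenal libraries. It had 64.3, 65.9, 64.1 and 63.0 CPM in the descending and 117, 119.9, 121 and 65.8 CPM in the ascending libraries (log2 difference -1.83, SE 0.20, adjusted p = 0.000164). The descending libraries lay within 3 CPM of each other, and ascending library 4 was close to them rather than to the other ascending libraries. CACNB4 (GeneID 102116137), an auxiliary subunit of voltage-gated calcium channels, had 3.24, 9.63, 8.52 and 3.28 CPM in the infrarenal and 14.2, 8.23, 5.77 and 8.98 CPM in the suprarenal libraries. It had 17.6, 29.4, 27.4 and 26.5 CPM in the descending and 26.6, 33.3, 28.1 and 18 CPM in the ascending libraries (log2 difference -1.77, SE 0.26, adjusted p = 0.00176). Its values were -0.59 from infrarenal against suprarenal, -1.44 from suprarenal against descending and -0.07 from descending against ascending, so the suprarenal against descending value was the largest of the 3.

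The other lower genes without overlap were less abundant or changed less. PDE8B (GeneID 102138645), a phosphodiesterase of cyclic AMP, ran from 1.23 to 4.44 CPM in abdominal libraries (median 2.73) and 4.52 to 17.7 CPM in thoracic libraries (median 7.85) (-1.58, SE 0.28, adjusted p = 0.00646). GRIA3 (GeneID 101865995), a subunit of AMPA-type glutamate receptors, ran from 6.02 to 20 CPM in abdominal libraries (median 8.87) and 20.5 to 47.1 CPM in thoracic libraries (median 26.2) (-1.53, SE 0.19, adjusted p = 0.000527). SLC6A8 (GeneID 102120373), the creatine transporter, ran from 52.8 to 96.8 CPM in abdominal libraries (median 83.1) and 106 to 212 CPM in thoracic libraries (median 142) (-0.89, SE 0.11, adjusted p = 0.000596). These 3 genes fell in graded fashion, with the infrarenal mean lowest and the ascending mean highest in each. USH1G (GeneID 102137689), a scaffold protein known from hair cells of the inner ear, fell by 1.42 and FAM131B (GeneID 102122275) by 1.04 on the log2 scale (adjusted p = 0.0144 and 0.00879). Both were also picked for values under 0.5 within each side. These were -0.31 and -0.38 for infrarenal minus suprarenal and -0.50 and -0.39 for descending minus ascending. Suprarenal minus descending was -1.02 and -0.65, a larger value that follows from that choice, and neither value passed alone. SRRM3 (GeneID 102134674), a splicing factor known from neurons, fell by 0.99 (SE 0.17, adjusted p = 0.00584). The annotated spans of ATP1B1 and FAM131B overlap those of NME7 and CLCN1, and NME7 had a value of -0.08 (adjusted p = 0.932).

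**Figure D2:**
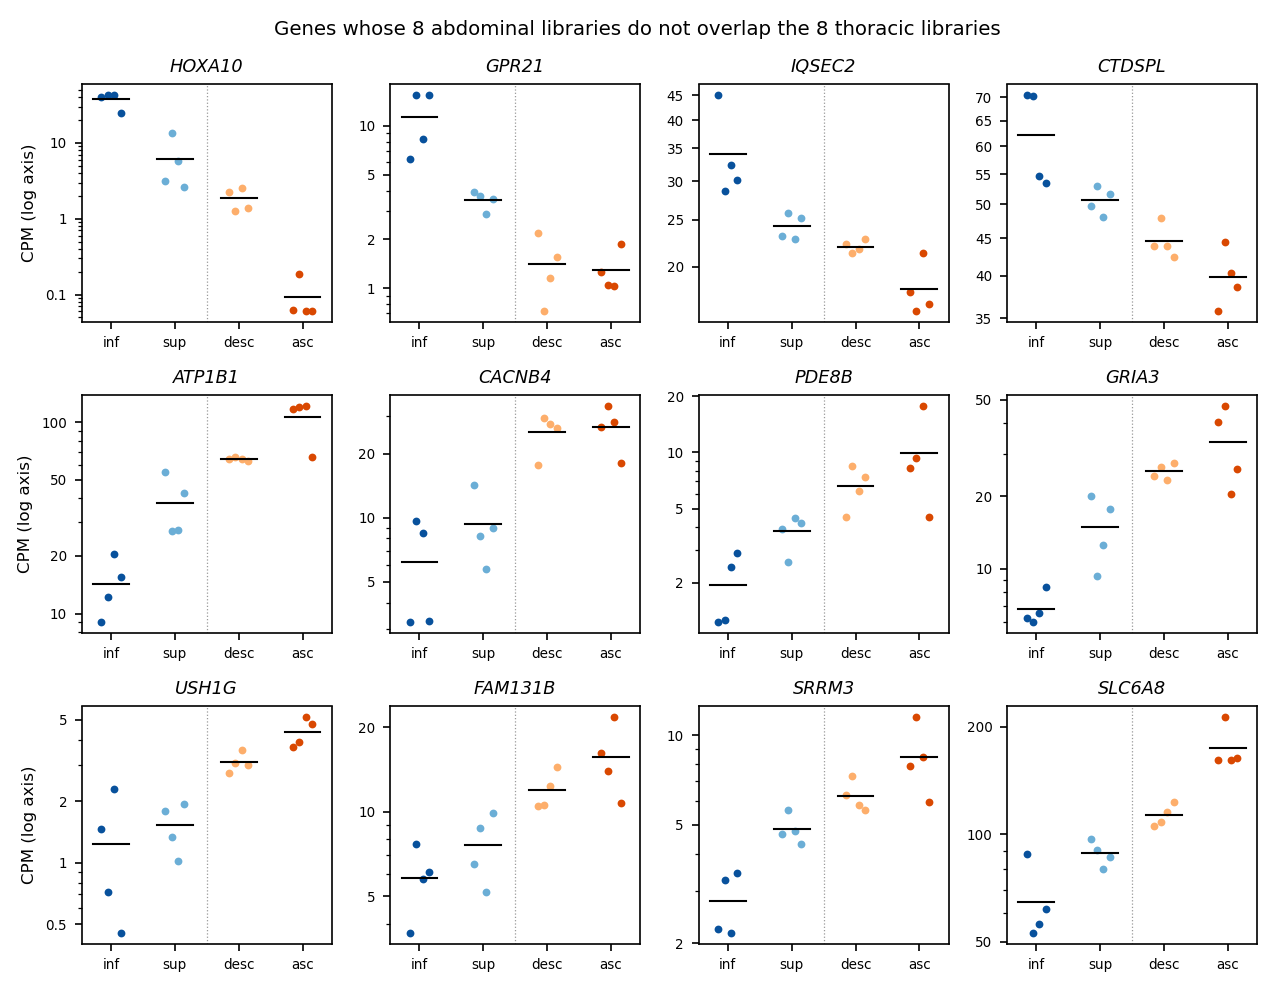
CPM on a log axis in each library of the infrarenal (inf), suprarenal (sup), descending (desc) and ascending (asc) aorta for 12 genes, with a bar at each region's mean and a dotted line between the abdominal and thoracic sides. In each panel all 8 abdominal points lie on one side of all 8 thoracic points, from ATP1B1 with at most 55.2 CPM in the abdominal and at least 63.0 CPM in the thoracic libraries to SLC6A8 with at most 96.8 and at least 106 CPM.

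Posterior HOX genes were higher in the abdominal aorta. Of 24 HOX genes listed as posterior, from paralog group 6 on, 15 passed the filter on low counts. Of these 15, 14 (93.3%) were called higher in the abdominal aorta, against 0.942% of all genes tested. Their median log2 difference was 3.73, or 3.66 with regions without a count set to a floor of 3 counts per region, against 0.04 over all genes. The exception was HOXB6 with 0.73, SE 0.18, adjusted p = 0.05. Genes that passed the filter only through the region where they are high had to differ, so the count is a description of the genes measured. Leaving out 1 library changed the number called to 12 (without suprarenal library 3) at the lowest and 15 (without ascending library 4) at the highest. With both abdominal regions against the descending region alone, 4 were called and the median was 1.48. With the suprarenal region alone against the thoracic regions, 6 were called and the median was 2.88. The median for descending minus ascending was 4.23, against 1.16 for suprarenal minus descending.

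The posterior HOX genes did not share 1 pattern. HOXA7 had 92.0, 30.4, 31.3 and 26.7 CPM in the infrarenal and 44.3, 48.0, 34.9 and 33.3 CPM in the suprarenal libraries. It had 36.4, 23.0, 20.6 and 5.65 CPM in the descending and 0.689, 0.123, 0.605 and 0.483 CPM in the ascending libraries (log2 difference 3.73, SE 0.40, adjusted p = 0.000164). Its descending minus ascending value was 5.47 (SE 0.63, adjusted p = 0.00198) and its infrarenal minus suprarenal value 0.17 (SE 0.48), and its ascending libraries were lowest. HOXC6 (3.0, SE 0.40, adjusted p = 0.000749) and HOXB7 (2.61, SE 0.27, adjusted p = 0.000156) had the same order, with descending minus ascending values of 4.81 and 3.37 and infrarenal minus suprarenal values of 0.02 and 0.60. Against the descending region alone, the abdominal values of HOXA7, HOXC6 and HOXB7 were 0.99, 0.59 and 0.93 and did not pass (adjusted p = 0.601, 0.73 and 0.384). Descending library 4 was the lowest of its region for both HOXA7 and HOXC6.

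HOXA9 and HOXA10, like HOXA7 and HOXB7, had positive values at all 3 steps along the vessel, the largest between descending and ascending. The infrarenal minus suprarenal values of HOXA9 and HOXA10 were larger than those of HOXA7, HOXC6 and HOXB7. HOXA9 had 51.3, 47.5, 44.5 and 34.5 CPM in the infrarenal and 5.57, 25.8, 9.01 and 3.78 CPM in the suprarenal libraries. It had 2.50, 5.06, 4.31 and 2.16 CPM in the descending and 0.0627, 0.0617, 0.0605 and 0.362 CPM in the ascending libraries (log2 difference 4.96, SE 0.45, adjusted p = 5.63e-05). Its values were 2.01 from infrarenal against suprarenal, 1.66 from suprarenal against descending and 4.60 from descending against ascending. Those of HOXA10 were 2.58 from infrarenal against suprarenal, 1.74 from suprarenal against descending and 4.23 from descending against ascending. The 4 ascending libraries held 9 counts of HOXA9 and 6 of HOXA10 in all, so the descending against ascending values of both rest on few counts. Suprarenal library 2 held 25.8 CPM of HOXA9 and 13.3 CPM of HOXA10, the highest suprarenal values of both. Against the descending region alone HOXA10 (3.03, adjusted p = 0.0114), HOXA9 (2.66, adjusted p = 0.0278) and HOXC9 (3.64, adjusted p = 0.0255) still passed.

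Several posterior members rested on few thoracic counts. HOXC9 held 576, 244, 29 and 1 counts in the infrarenal, suprarenal, descending and ascending regions, a ratio of abdominal to thoracic counts, scaled for library size, of 27.4 (exact 95% interval of counting error 19.1 to 40.9). HOXC9 also had no overlap between the sides, with a mean log2 CPM under 1 (5.78, SE 0.62, adjusted p = 0.000164). HOXD9 was high in the infrarenal region and low in the other regions, with means of 31.5, 4.78, 0.967 and 0.958 CPM in the infrarenal, suprarenal, descending and ascending regions (3.66, SE 0.56, adjusted p = 0.00259). HOXD10 held 624 infrarenal, 9 suprarenal, 0 descending and 4 ascending counts, and all 9 suprarenal counts came from library 3. Its fitted difference was 5.71, SE 1.11, adjusted p = 0.0179, or 4.44 with the descending region at the floor of 3 counts. Without suprarenal library 3 its value was 3.59 and its adjusted p was 1. HOXB8 held 102, 83, 27 and 0 counts in the same order of regions, and its difference was 4.64 as fitted and 3.36 with the floor (adjusted p = 0.00405).

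HOXA6 (2.96, adjusted p = 0.0358), HOXA11 (4.03, adjusted p = 0.00815), HOXC8 (4.07, adjusted p = 0.00332), HOXC10 (1.32, adjusted p = 0.0145) and HOXD8 (2.18, adjusted p = 0.00584) were the remaining posterior members called. The call of HOXA6 was lost in 13 of 16 refits on 15 libraries (largest adjusted p 0.0894, without ascending library 2). In the RefSeq annotation used for names, the span of HOXC10 overlaps those of HOXC4, HOXC5, HOXC6, HOXC8 and HOXC9. The span of HOXC6 also overlaps those of HOXC4, HOXC8 and HOXC9, that of HOXC4 overlaps HOXC5 and that of HOXC8 overlaps HOXC9. Those of HOXA4 and HOXA6 overlap HOXA3, that of HOXD4 overlaps HOXD3, that of HOXD10 overlaps HOXD11 and that of HOXB8 overlaps HOXB9, and HOXA10 overlaps a long non-coding RNA. The values of these genes are uncertain to the extent that the counting split or dropped shared reads. Of the anterior HOX list, 3 of 13 tested genes were higher and 1 was lower (30.8% called, against 2.11% of all genes tested). Their median was 0.34. HOXC4 (2.45, SE 0.25, adjusted p = 0.000156), HOXD4 (2.14, SE 0.42, adjusted p = 0.0119) and HOXB5 (1.70, SE 0.36, adjusted p = 0.0188) rose. HOXA4 went the other way and fell by 1.41 (SE 0.21, adjusted p = 0.00216), with means of 3.11, 11.5, 19.5 and 13.1 CPM in the infrarenal, suprarenal, descending and ascending regions. Its infrarenal libraries lay below all others, and infrarenal minus suprarenal was -1.88 (SE 0.31, adjusted p = 0.0209). Without ascending library 4, 8 anterior members were called. HOXB5 lost its call in 1 of 16 refits, without ascending library 2 (adjusted p = 0.0512). Of 8 tested HOX cofactors, 0 were called by edgeR and 0 by DESeq2, 2 had an unadjusted edgeR p under 0.05, and the median was 0.01.

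**Figure D3:**
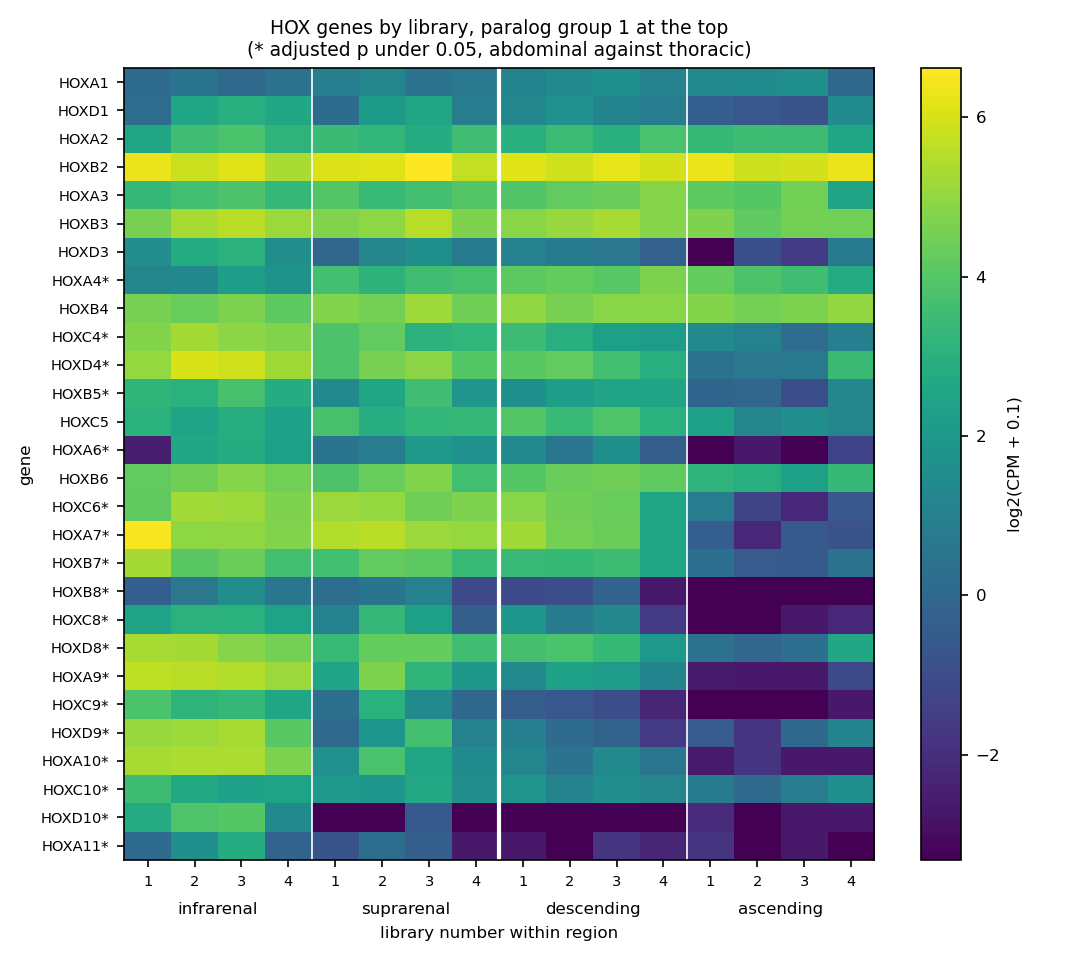
Colour gives log2(CPM + 0.1) for the 28 HOX genes tested, 1 row per gene in order of paralog group and 1 column per library, from infrarenal at the left to ascending at the right, and an asterisk marks an adjusted p under 0.05. HOXA7, HOXC6 and HOXB7 are darkest in the ascending columns, HOXD9 and HOXD10 are brightest in the infrarenal columns, and HOXA4 is darkest in the infrarenal columns.

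Transcription factors of the heart field and neural crest were called in both directions, more often lower. Of 23 tested genes, 4 were lower and 1 was higher (21.7% called, against 2.11% of all genes tested). Their median was -0.19, or -0.04 without ascending library 4. SOX9, a factor of cartilage and neural crest, had 0.386, 0.843, 2.16 and 1.24 CPM in the infrarenal and 26.7, 4.45, 3.62 and 5.31 CPM in the suprarenal libraries. It had 41.9, 21.9, 29.7 and 15.8 CPM in the descending and 27.1, 19.0, 19.7 and 8.33 CPM in the ascending libraries (log2 difference -2.71, SE 0.46, adjusted p = 0.0047). Suprarenal library 1, at 26.7 CPM, lay within the thoracic range and the other abdominal libraries lay below it. HAND2, a factor of heart and neural crest derivatives, fell by 1.02 (SE 0.19, adjusted p = 0.00846), with means of 24.0, 40.2, 40.8 and 97.9 CPM in the infrarenal, suprarenal, descending and ascending regions. The ascending libraries of HAND2 were higher than all others, while suprarenal minus descending was -0.02. The T-box factor TBX20 (-2.24, SE 0.41, adjusted p = 0.00809) and GATA5 (-1.35, SE 0.29, adjusted p = 0.021), both known from the heart, also fell, and TBX2, a T-box repressor, rose (1.32, SE 0.29, adjusted p = 0.0261).

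Of 35 tested factors that pattern other mesoderm, 2 were higher and 4 lower (17.1% called, against 2.11% of all genes tested). Their median was 0.06, or -0.20 without suprarenal library 3. OSR1, a zinc finger factor of intermediate mesoderm, ran from 77.9 to 724 CPM in abdominal libraries (median 248) and 439 to 1225 CPM in thoracic libraries (median 729) (-1.60, SE 0.28, adjusted p = 0.00555). Its relative OSR2 (-1.04, SE 0.18, adjusted p = 0.00554) and the Iroquois factors IRX2 (-2.31, SE 0.42, adjusted p = 0.00713) and IRX1 (-2.94, SE 0.64, adjusted p = 0.0226) fell as well, and infrarenal minus suprarenal was -1.74, -0.97, -3.03 and -3.51 for these 4 genes. The nuclear receptors NR2F1 (1.68, SE 0.38, adjusted p = 0.0282) and NR2F2 (0.81, SE 0.19, adjusted p = 0.0384), known from veins and mesenchyme, rose. Their infrarenal minus suprarenal values were -0.56 (SE 0.52) and 0.26 (SE 0.27). NR2F2 is also a marker of venous and lymphatic endothelium, and its highest value, 149.7 CPM, was in suprarenal library 3, which also had the highest summed endothelial markers (5329 CPM). Calls were lost in some of the 16 refits on 15 libraries for GATA5 in 4 (largest adjusted p 0.0565, without suprarenal library 2), IRX1 in 2 (largest adjusted p 0.0559, without infrarenal library 2), TBX2 in 7 (largest adjusted p 0.0654, without descending library 2), NR2F1 in 9 (largest adjusted p 0.0716, without descending library 2) and NR2F2 in 10 (largest adjusted p 0.089, without ascending library 2). The number called fell to 3 of 23 heart field genes without ascending library 3 and to 3 of 35 other mesodermal genes without descending library 4.

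NOTCH3, named in the title of the study, was among the genes with the smallest p. NOTCH3 (GeneID 102120202), the Notch receptor found mainly in mural cells, had 494, 429, 402 and 505 CPM in the infrarenal and 256, 248, 177 and 182 CPM in the suprarenal libraries. It had 236, 108, 94.2 and 128 CPM in the descending and 71.2, 45.1, 47.8 and 61.3 CPM in the ascending libraries (log2 difference 1.81, SE 0.18, adjusted p = 0.000156). The sides averaged 337 ± 136 and 99.0 ± 62.5 CPM (SD, n = 8 each) and overlapped only where descending library 1 reached the suprarenal values. Its values were 1.09 from infrarenal against suprarenal, 0.61 from suprarenal against descending and 1.33 from descending against ascending, each positive and none called alone (adjusted p = 0.131, 1 and 0.0726). NOTCH3 was called in all 28 other settings tried, and its difference stayed between 1.74 and 1.99 when 1 library was left out.

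Of 29 tested Notch pathway genes, 3 were higher and 0 lower (10.3% called, against 2.11% of all genes tested). Their median was 0.24, or 0.047 without suprarenal library 3. JAG1, a Notch ligand, ran from 113 to 339 CPM in abdominal libraries (median 226) and 69.9 to 169 CPM in thoracic libraries (median 97.2) (1.05, SE 0.15, adjusted p = 0.00165). HES4, a repressor induced by Notch, ran from 9.74 to 215 CPM in abdominal libraries (median 56.2) and 8.70 to 24.6 CPM in thoracic libraries (median 16.7) (1.86, SE 0.34, adjusted p = 0.00761), and infrarenal library 1 had its highest value. Both were highest in the infrarenal region, and their infrarenal minus suprarenal values were 0.97 and 1.70. The summed level of the Notch list was 1766 to 2396 CPM in the abdominal libraries (median 1954). In the thoracic libraries it was 1330 to 1769 CPM (median 1550). This sum holds the 3 called genes. Abdominal and thoracic means were 337 and 99.0 CPM for NOTCH3, 223 and 103 CPM for JAG1 and 70.4 and 16.4 CPM for HES4. The sum therefore does not show a shift of the other members. The other 26 genes did not pass.

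The elastic fibre genes had mostly negative values, with 1 call. Of 23 tested genes, 19 had negative and 4 positive values, with a median of -0.18. The 1 call was 4.35% of the list, against 2.11% of all genes tested. EMILIN2, a glycoprotein of elastic tissue, fell by 0.85 (SE 0.14, adjusted p = 0.00369), with 68.9 to 129 CPM in abdominal libraries (median 94.9) and 113 to 236 CPM in thoracic libraries (median 162). ELN (GeneID 102118050), which encodes tropoelastin, had 33.4, 246, 221 and 135 CPM in the infrarenal and 297, 388, 168 and 189 CPM in the suprarenal libraries. It had 349, 635, 423 and 212 CPM in the descending and 225, 521, 406 and 118 CPM in the ascending libraries (log2 difference -0.82, SE 0.38, adjusted p = 0.487). The sides overlapped widely, and the lowest value was in infrarenal library 1. FBN1 (GeneID 102127300), the main microfibril protein, averaged 471 ± 142 CPM in abdominal and 566 ± 148 CPM in thoracic libraries (SD, n = 8 each) and did not pass (-0.27, SE 0.16, adjusted p = 0.666). For the suprarenal region alone against the thoracic regions its value was 0.017. The span of EMILIN2 overlaps that of LPIN2, which had a value of -0.14 (adjusted p = 0.919).

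Collagen genes were called in both directions. Of 17 fibrillar and associated collagens 2 were higher and 0 lower (11.8% called, against 2.11% of all genes tested). Their median was 0.22. COL8A1, a short-chain collagen of vessel walls, had 707, 719.9, 488 and 498 CPM in the infrarenal and 97.2, 248, 122 and 50.4 CPM in the suprarenal libraries. It had 42.1, 64.9, 63.3 and 50.4 CPM in the descending and 27.1, 18.5, 42.7 and 76.5 CPM in the ascending libraries (log2 difference 2.55, SE 0.32, adjusted p = 0.000607). Every infrarenal value lay above every other value, and suprarenal library 4 lay within the thoracic range. COL1A1, a chain of type I collagen, ran from 1243 to 4465 CPM in abdominal libraries (median 2528) and 583 to 2465 CPM in thoracic libraries (median 1226) (1.13, SE 0.22, adjusted p = 0.0108), and its descending minus ascending value was 1.46 against 0.16 for suprarenal minus descending. Of 23 basement membrane genes, 1 was higher and 2 were lower (13% called), with a median of 0.02. COL4A3 had 10.6, 9.93, 8.58 and 14.4 CPM in the infrarenal and 52.9, 24.4, 27.2 and 71.3 CPM in the suprarenal libraries. It had 63.1, 84.7, 82.8 and 86.5 CPM in the descending and 90.4, 64.8, 94.4 and 114 CPM in the ascending libraries (log2 difference -1.96, SE 0.22, adjusted p = 0.000169).

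COL4A3 and COL4A4 encode chains of the same type IV collagen and their annotated spans overlap. Suprarenal library 4 alone of the abdominal libraries reached the thoracic range of COL4A3. COL4A4 fell by 1.36 (SE 0.32, adjusted p = 0.0339), and both were lowest in the infrarenal region (infrarenal minus suprarenal -2.01 and -1.54). LAMA5, a laminin chain, rose by 0.57 (SE 0.12, adjusted p = 0.022), with 224 to 385 CPM in abdominal libraries (median 329) and 166 to 242 CPM in thoracic libraries (median 213). Of 29 proteoglycan and cartilage-like matrix genes, with a median of -0.16, 0 were higher and 1 was lower (3.45% called, against 2.11% of all genes tested). It was SULF2, a sulfatase that edits heparan sulfate (-1.15, SE 0.24, adjusted p = 0.0188). Of 32 contractile smooth muscle genes, 1 was higher and 0 were lower (3.12% called, near the 2.11% of all genes tested). Their median was 0.08, or -0.02 without infrarenal library 1. The one called, SMOC1, a matricellular calcium-binding protein, is not a contractile protein, and ran from 156 to 1200.1 CPM in abdominal libraries (median 358) and 108 to 269 CPM in thoracic libraries (median 191) (1.28, SE 0.25, adjusted p = 0.0107). MYH11 had a value of -0.42 (adjusted p = 0.722). Among 41 genes of extracellular proteolysis 0 were called by edgeR and 3 by DESeq2, 7 had an unadjusted edgeR p under 0.05, and the median was 0.04. The calls of LAMA5 and COL4A4 were lost in 4 and 9 of 16 refits on 15 libraries (largest adjusted p 0.0599 and 0.0836, without ascending library 2 and suprarenal library 2).

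Receptors that set vascular tone were called mostly upward. Of 56 vasoactive receptor and renin-angiotensin genes, 5 were higher and 1 was lower (10.7% called, against 2.11% of all genes tested). Their median was 0.27, or 0.08 without suprarenal library 3. P2RX1, a purinergic receptor that opens as a cation channel when ATP binds, had 230.2, 246, 164 and 121 CPM in the infrarenal and 9.46, 111, 20.3 and 1.48 CPM in the suprarenal libraries. It had 8.80, 5.96, 1.58 and 1.77 CPM in the descending and 2.0, 3.33, 0.908 and 4.22 CPM in the ascending libraries (log2 difference 4.58, SE 0.70, adjusted p = 0.00259). Suprarenal library 2 was near the infrarenal range and suprarenal library 4 was within the thoracic range. GUCY1A1 (1.04, SE 0.22, adjusted p = 0.0186) and GUCY1B1 (0.63, SE 0.15, adjusted p = 0.0339), the subunits of soluble guanylyl cyclase, the nitric oxide receptor, rose. Their infrarenal minus suprarenal values were -0.04 (SE 0.30) and 0.13 (SE 0.21). The endothelin receptor EDNRA (0.89, SE 0.21, adjusted p = 0.0339) and the prostaglandin receptor PTGER2 (1.97, SE 0.47, adjusted p = 0.0404) rose. CHRM2, a muscarinic acetylcholine receptor, fell by 2.70 (SE 0.44, adjusted p = 0.00346), with 0.386 to 16.5 CPM in abdominal libraries (median 4.02) and 15.6 to 65.4 CPM in thoracic libraries (median 25.5).

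Of 52 ion channel genes of muscle, 5 were higher and 3 lower (15.4% called, against 2.11% of all genes tested). Their median was 0.13. KCNAB1, an auxiliary subunit of voltage-gated potassium channels, ran from 1.92 to 106 CPM in abdominal libraries (median 29.0) and 1.0 to 7.03 CPM in thoracic libraries (median 1.94) (3.46, SE 0.45, adjusted p = 0.0007). The potassium channels KCNT2 (2.96, SE 0.53, adjusted p = 0.00682), KCNA5 (1.25, SE 0.23, adjusted p = 0.00862) and KCNA2 (1.59, SE 0.32, adjusted p = 0.0137) and the T-type calcium channel CACNA1H (1.95, SE 0.34, adjusted p = 0.00554) rose. All 5 were highest in the infrarenal region, with infrarenal minus suprarenal values of 1.61 to 2.77. KCNA5 had a negative descending minus ascending value (-1.04), opposite to its abdominal excess. Among the lower genes, the calcium release channel RYR3 (-1.31, SE 0.30, adjusted p = 0.0339) and the auxiliary subunit KCNAB2 (-0.42, SE 0.10, adjusted p = 0.0494) fell. Calls were lost in some of the 16 refits on 15 libraries for GUCY1A1 in 1 (largest adjusted p 0.0507, without descending library 3), GUCY1B1 in 10 (largest adjusted p 0.0854, without descending library 2), EDNRA in 11 (largest adjusted p 0.0844, without descending library 3), PTGER2 in 11 (largest adjusted p 0.091, without ascending library 1), RYR3 in 11 (largest adjusted p 0.0827, without descending library 4) and KCNAB2 in 14 (largest adjusted p 0.113, without descending library 4). Without descending library 3, 2 of the 56 receptor genes were called, and without ascending library 4, 8 were.

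Of 48 TGF-beta and BMP genes 1 was higher and 2 were lower (6.25% called, against 2.11% of all genes tested), with a median of 0.03. GREM1, a secreted BMP antagonist, had 22.8, 72.0, 41.0 and 21.5 CPM in the infrarenal and 2.35, 4.74, 9.39 and 11.0 CPM in the suprarenal libraries. It had 1.28, 0.361, 1.88 and 7.43 CPM in the descending and 0.564, 0.494, 1.88 and 2.96 CPM in the ascending libraries (log2 difference 3.02, SE 0.57, adjusted p = 0.00862). The infrarenal libraries were above all others, and the suprarenal and descending libraries overlapped. The ligand BMP3 fell by 2.56 (SE 0.44, adjusted p = 0.005) and the receptor BMPR1B by 1.69 (SE 0.40, adjusted p = 0.037). Of 45 WNT pathway genes, 1 was higher and 2 were lower (6.67% called), with a median of 0.08. RSPO2, a secreted enhancer of WNT signalling, fell by 3.5 (SE 0.55, adjusted p = 0.00292), with 0 to 6.26 CPM in abdominal libraries (median 1.79) and 2.90 to 34.8 CPM in thoracic libraries (median 10.1). The WNT receptor ROR2 fell (-0.96, SE 0.23, adjusted p = 0.0439) and the co-receptor LRP5 rose (0.57, SE 0.13, adjusted p = 0.0361). Of 16 retinoic acid genes the receptor RARB alone was called (6.25%). It fell (-0.73, SE 0.16, adjusted p = 0.0255), while the list's median was 0.49. Without suprarenal library 3 the medians were -0.08 for the TGF-beta and BMP, -0.01 for the WNT and 0.13 for the retinoic acid list.

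Of 61 axon guidance genes, 1 was higher and 4 were lower (8.2% called), with a median of 0.07, or -0.11 without suprarenal library 3 and 0.21 without ascending library 4. SEMA3C, a secreted semaphorin, ran from 43.9 to 161 CPM in abdominal libraries (median 77.0) and 87.6 to 354 CPM in thoracic libraries (median 242) (-1.42, SE 0.23, adjusted p = 0.00335). The ephrin ligand EFNB3 (-1.91, SE 0.29, adjusted p = 0.00259), the ephrin receptor EPHB6 (-0.90, SE 0.17, adjusted p = 0.00811) and the netrin NTN4 (-0.64, SE 0.14, adjusted p = 0.0211) fell. NTN4 was low in the infrarenal region alone, with means of 123, 313, 335 and 279 CPM in the infrarenal, suprarenal, descending and ascending regions, and its value was 0.036 for the suprarenal region alone against the thoracic regions. SLIT3, a secreted guidance protein, rose by 0.73 (SE 0.16, adjusted p = 0.0233), with means of 308, 194, 232 and 93.9 CPM in the infrarenal, suprarenal, descending and ascending regions. Its ascending libraries were lowest, and suprarenal minus descending was -0.26. Calls were lost in some of the 16 refits on 15 libraries for BMPR1B in 12 (largest adjusted p 0.0903, without suprarenal library 2), ROR2 in 12 (largest adjusted p 0.104, without ascending library 3), LRP5 in 11 (largest adjusted p 0.0899, without suprarenal library 2), RARB in 8 (largest adjusted p 0.0681, without suprarenal library 2), NTN4 in 3 (largest adjusted p 0.0585, without suprarenal library 2) and SLIT3 in 6 (largest adjusted p 0.0641, without ascending library 2).

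Of 31 genes of heritable thoracic aortic disease, COL1A1 was higher and 0 were lower (3.23% called, against 2.11% of all genes tested), with a median of -0.07. Of 25 genes at risk loci of abdominal aortic aneurysm 0 were called by edgeR and 2 by DESeq2, 6 had an unadjusted edgeR p under 0.05, and the median was -0.07. Immediate-early genes (24 tested) and nuclear genes of oxidative phosphorylation (43 tested) had 0 calls by edgeR and by DESeq2. In each list 2 genes had an unadjusted edgeR p under 0.05, and the medians were -0.12 and 0.08. Without ascending library 1 the immediate-early median was 0.088. Without infrarenal library 1, which held 7427 CPM of the oxidative phosphorylation genes in sum, the median of that list was -0.11.

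**Figure D4:**
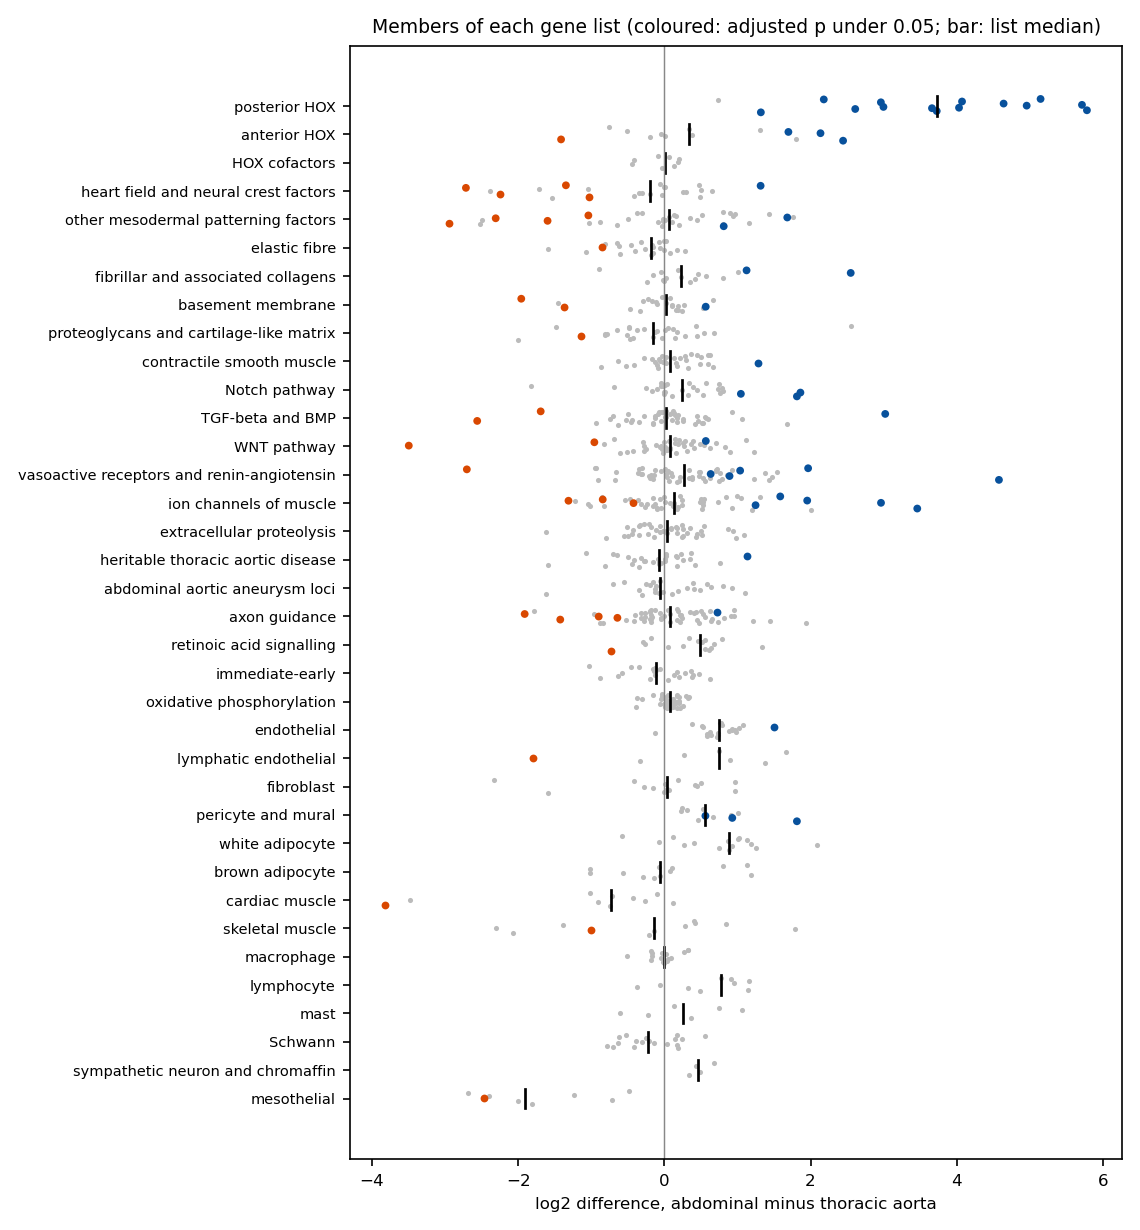
Each point is a tested gene of a list, with its log2 difference of the abdominal minus the thoracic aorta on the x axis. Blue points are higher and orange points lower at an adjusted p under 0.05, grey points did not pass, and black bars are list medians, of which posterior HOX (3.73) and mesothelial markers (-1.91) lie farthest from 0.

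Outside the lists, the genes given next were chosen after their values were seen, for the size or the p of their difference. RBFOX1, a splicing regulator of muscle and neurons, had 0, 0, 0.197 and 0.170 CPM in the infrarenal and 18.2, 1.39, 9.20 and 4.31 CPM in the suprarenal libraries. It had 20.2, 19.6, 47.3 and 31.2 CPM in the descending and 65.2, 63.9, 51.6 and 15 CPM in the ascending libraries (log2 difference -5.37, SE 0.59, adjusted p = 0.000166). Infrarenal libraries were at or near 0 and suprarenal library 1 alone reached the thoracic range. The catenin CTNND2 (-3.98, SE 0.72, adjusted p = 0.00702), the cation transporter SLC22A2 (-3.96, SE 0.87, adjusted p = 0.0236) and the membrane glycoprotein PROM1 (-3.30, SE 0.54, adjusted p = 0.00372) also fell by more than 3 log2 units. Lower genes with small p included MTUS2 (-1.94, SE 0.21, adjusted p = 0.000166), the vesicular glutamate transporter SLC17A7 (-1.67, SE 0.18, adjusted p = 0.000164), the calcineurin-binding MYOZ2 (-2.03, SE 0.27, adjusted p = 0.000748), the claudin CLDN11 (-2.16, SE 0.32, adjusted p = 0.00173) and ENPP1 (-1.45, SE 0.21, adjusted p = 0.00173), which makes the mineralization inhibitor pyrophosphate. ENPP1 ran from 32.1 to 192 CPM in abdominal libraries (median 61.2) and 149 to 255 CPM in thoracic libraries (median 228).

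Higher genes outside the lists included NKAIN2 (5.04, SE 0.61, adjusted p = 0.000466), the catenin CTNNA3 (3.55, SE 0.43, adjusted p = 0.000466), the angiopoietin ANGPT2 (2.68, SE 0.43, adjusted p = 0.00324) and PTCHD1 (2.66, SE 0.40, adjusted p = 0.00216). S1PR3, a receptor for sphingosine-1-phosphate, ran from 28 to 264 CPM in abdominal libraries (median 132) and 10.8 to 38.6 CPM in thoracic libraries (median 17.5) (2.37, SE 0.32, adjusted p = 0.000968). The teneurin TENM3 (1.74, SE 0.20, adjusted p = 0.000221) and the growth factor FGF1 (1.57, SE 0.29, adjusted p = 0.00862) rose. TENM3 differed most between descending and ascending libraries (1.87), and ANGPT2 and CTNNA3 most between infrarenal and suprarenal ones (2.50 and 2.79). Annotated spans also overlap for CACNA1H with TPSG1, HAND2 with SCRG1, MYH11 with NDE1, ANGPT2 with MCPH1, FGF1 with ARHGAP26 and CTNNA3 with LRRTM3. The call of SLC22A2 was lost in 5 of 16 refits on 15 libraries (largest adjusted p 0.0639, without infrarenal library 2).

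**Figure D5:**
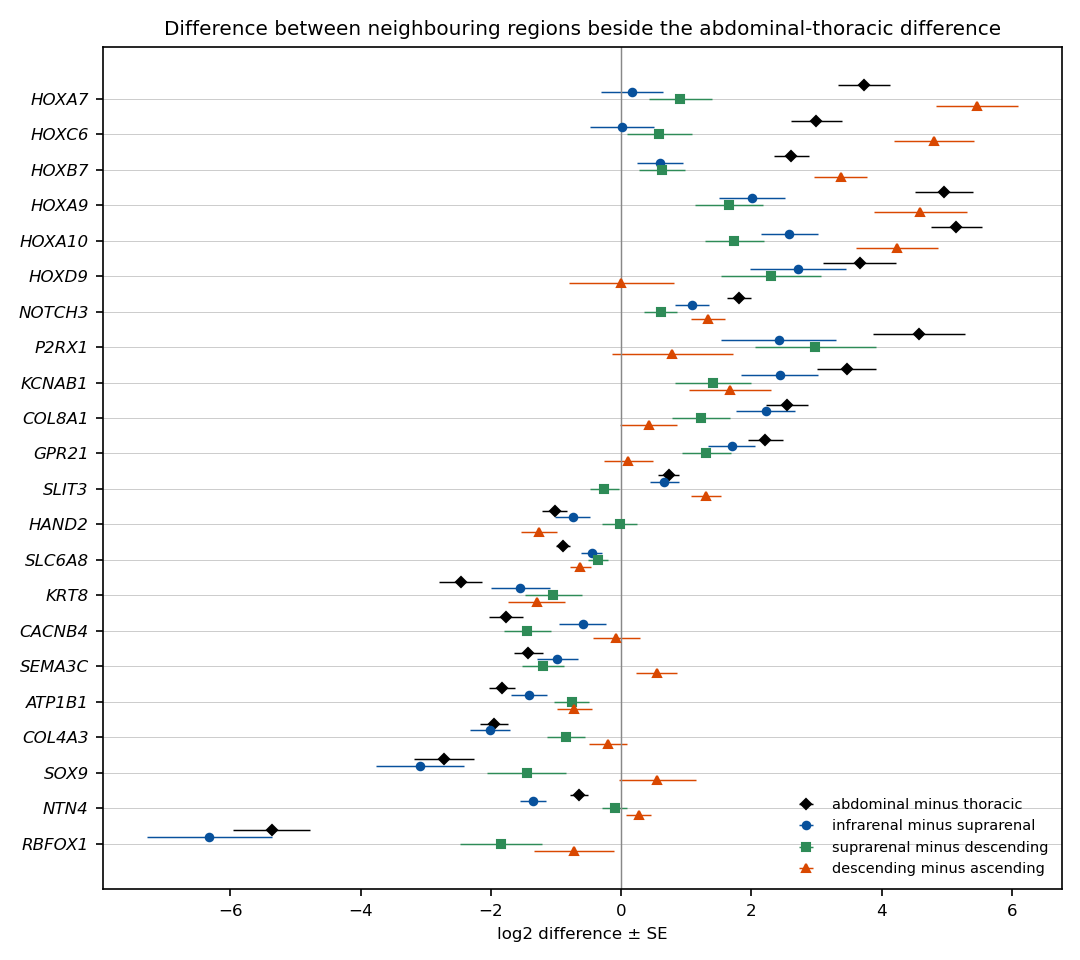
For 22 genes, the log2 difference of the abdominal minus the thoracic aorta (black diamonds) is set beside infrarenal minus suprarenal (blue circles), suprarenal minus descending (green squares) and descending minus ascending (orange triangles), with bars of 1 SE. Among neighbouring regions, HOXA7, HOXC6, HOXB7, HOXA9 and HOXA10 have their largest value between descending and ascending. CACNB4 has it between suprarenal and descending (-1.44), and RBFOX1, SOX9 and COL4A3 between infrarenal and suprarenal.

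Markers of other cell types also differed between the libraries, and their part in the results above was not tested. Endothelial markers had positive values in 21 of 22 genes, with 1 called (4.55%, against 2.11% of all genes tested) and a median of 0.75. ESAM, an endothelial adhesion molecule, had 362, 286, 329 and 319.6 CPM in the infrarenal and 60.5, 212, 261 and 81.6 CPM in the suprarenal libraries. It had 58.6, 58.4, 76.5 and 70.4 CPM in the descending and 45.0, 50.7, 76.2 and 203 CPM in the ascending libraries (log2 difference 1.51, SE 0.34, adjusted p = 0.0267). The sides overlapped, and its call was lost in 9 of 16 refits on 15 libraries (largest adjusted p 0.0657, without ascending library 3). The summed endothelial level was 816.8 to 5329 CPM in the abdominal and 709.5 to 3182 CPM in the thoracic libraries. The list's median was 0.18 without suprarenal library 3 and 1.22 without ascending library 4.

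Pericyte and mural markers had positive values in 11 of 11 genes, with 3 called (27.3%) and a median of 0.56. Besides NOTCH3, these were PDGFRB, a growth factor receptor (0.56, SE 0.09, adjusted p = 0.00308), and MCAM, an adhesion molecule (0.93, SE 0.17, adjusted p = 0.00812), both of which aortic smooth muscle also expresses. PDGFRB ran from 234 to 370.1 CPM in abdominal libraries (median 295) and 161 to 258 CPM in thoracic libraries (median 205). The summed level of the mural list overlapped widely, with 2075 to 8514 CPM in abdominal and 2118 to 6904 CPM in thoracic libraries. By region it was 5390 to 7192 CPM in the infrarenal, 2075 to 8514 in the suprarenal, 5675 to 6904 in the descending and 2118 to 3583 in the ascending libraries. Mesothelial markers had negative values in 8 of 8 genes, with 1 called (12.5%) and a median of -1.91. Their summed level was 27.39 to 163.1 CPM in the abdominal and 42.03 to 1163 CPM in the thoracic libraries. Without ascending library 4 their median was -0.20. KRT8, a keratin of epithelia, was called, with 2.95 to 19.6 CPM in abdominal libraries (median 9.91) and 11.7 to 95.4 CPM in thoracic libraries (median 57.7) (-2.46, SE 0.33, adjusted p = 0.000754), and its value without 1 library stayed between -2.68 and -2.31.

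Of 10 tested cardiac muscle markers 1 was called (10%), against 2.11% of all genes tested. Values were negative in 9 of the 10, with a median of -0.73, and 4 had an unadjusted edgeR p under 0.05. The cardiac median was -1.21 for descending minus ascending, and -0.16 for the abdominal regions against the descending region alone. MYH6, a myosin of heart muscle, fell (-3.81, SE 0.86, adjusted p = 0.0275), on 15 abdominal and 161 thoracic counts. Its level was highest in ascending library 1, at 5.83 CPM. Its call was lost in 7 of 16 refits (largest adjusted p 0.0744, without descending library 3). The skeletal muscle list had ACTN3 called lower of 11 (9.09% called, -1.0, SE 0.21, adjusted p = 0.0206). That call was lost in 2 of 16 refits, with a largest adjusted p of 0.0529, without infrarenal library 2. The lymphatic list had PDPN called lower of 7 (14.3% called, -1.80, SE 0.37, adjusted p = 0.0162). The lymphatic median of 0.74 turned to -0.30 without suprarenal library 3, which held 347 CPM of these markers in sum against 19.86 to 109.1 CPM in the other abdominal libraries. White adipocyte markers had a median of 0.89 with 0 of 15 called by edgeR or DESeq2 and 0 at an unadjusted edgeR p under 0.05, and their median was 0.07 without infrarenal library 3. Against the descending region alone the white adipocyte median was -0.93, and for descending minus ascending it was 3.93. Macrophage (16 tested, median -0.01), lymphocyte (9, median 0.78), mast cell (6, median 0.25) and sympathetic neuron and chromaffin markers (4, median 0.46) also had 0 calls by either tool and 0 genes at an unadjusted edgeR p under 0.05. Fibroblast (15, median 0.04), brown adipocyte (12, median -0.07) and Schwann cell markers (18, median -0.22) had 0 calls by edgeR, with 4, 2 and 3 genes at an unadjusted edgeR p under 0.05 and 2, 2 and 0 calls by DESeq2. Without suprarenal library 3 the lymphocyte, mast cell, Schwann cell and fibroblast medians were 0.37, 0.046, -0.66 and -0.23, and without ascending library 4 they were 1.25 for lymphocyte and 0.10 for Schwann cell markers. No red blood cell marker was tested.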

How the data were processed

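Counts per gene, whole numbers deposited by the authors in 1 table of 16 libraries, were the only values used. Per the labels' protocols, RNA was extracted with an RNeasy fibrous tissue kit and libraries were made with NEBNext Ultra RNA reagents. The submitters' processing notes name fastp, HISAT2 2.0.5 and featureCounts 1.5.0-p3. The genome build, the annotation and the strand setting of the counting are each not given in the sources used here, so no coordinates are printed. Symbols came from the RefSeq annotation of assembly T2T-MFA8v1.1, used for names and overlaps of annotated genes only, and 24609 rows (74.9%, with 97.2% of the counts) matched.

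Genes were kept by filterByExpr (minimum count 10, minimum total 15), scaled with TMM and tested in edgeR 4.0.16 (limma 3.58.1, R 4.3.3) with the quasi-likelihood F test on region means, with Benjamini-Hochberg adjustment over all 15926 genes and a threshold of 0.05. SE is the size of the log2 difference over the square root of F. Library totals ran from 14402824 to 21407514 counts, and count intervals cover counting error only. No libraries of a region were near-identical (lowest chi-square per degree of freedom 29.5). Alternatives were DESeq2 1.42.0, limma voom, other scalings and filters, a minimum log2 change of 1, 2 groups of 8, single regions, a replicate block and leaving out each library. Leaving out 3 libraries together was chosen after seeing the data. The scripts were tested on simulated data.

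The comparison, the gene lists and the tests were chosen with earlier results of these data known. Named by rule were NOTCH3, ELN and FBN1, up to 12 genes each way with no overlap between sides (called, with a symbol and a mean log2 CPM of at least 1), up to 6 each way that were also level within each side (limit 0.5), and up to 4 called members of each list with the smallest p, 66 genes in all. A further 37 genes, and the genes given as overlapping neighbours, were chosen after their values were seen. 1 gene of the ion channel list is counted there and not reported by name.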

Additional observations from a re-analysis of the deposited data

Results flagged for a closer look

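In 31 of 410 groups of 4 libraries, over 103 genes, the highest or the lowest library lay far from the other 3 by Dixon's test at the 95% level, a gap that chance gives in about 1 in 20 groups. Infrarenal library 1 stood apart for HOXA7 at 92 CPM (high, others 26.7 to 31.3 CPM) and HES4 at 215 CPM (high, others 58.9 to 84.6 CPM). Infrarenal library 3 stood apart for MYH6 at 0.0655 CPM (high, others 0 CPM each) and PROM1 at 9.63 CPM (high, others 0.905 to 1.77 CPM). Infrarenal library 4 stood apart for HOXA10 at 24.8 CPM (low, others 40 to 42.5 CPM), SULF2 at 65.5 CPM (high, others 28.6 to 33.5 CPM) and SLIT3 at 456 CPM (high, others 250 to 273 CPM). Suprarenal library 1 stood apart for SOX9 at 26.7 CPM (high, others 3.62 to 5.31 CPM). Suprarenal library 2 stood apart for NKAIN2 at 27.5 CPM (high, others 1.89 to 5.57 CPM). Suprarenal library 3 stood apart for SMOC1 at 156 CPM (low, others 341 to 368 CPM), GUCY1A1 at 75.6 CPM (high, others 44.3 to 46.5 CPM), HOXD10 at 0.571 CPM (high, others 0 CPM each), PTGER2 at 5.84 CPM (high, others 1.11 to 1.63 CPM) and FGF1 at 20.3 CPM (high, others 10.1 to 11.8 CPM). Descending library 1 stood apart for COL4A3 at 63.1 CPM (low, others 82.8 to 86.5 CPM), GUCY1A1 at 49.8 CPM (high, others 28.8 to 30.7 CPM) and NR2F2 at 76 CPM (high, others 53 to 55.2 CPM). Descending library 3 stood apart for COL4A4 at 37.3 CPM (low, others 70.9 to 72.9 CPM), SEMA3C at 354 CPM (high, others 248 to 260 CPM) and MYH6 at 1.09 CPM (high, others 0.277 to 0.305 CPM). Ascending library 1 stood apart for MYH6 at 5.83 CPM (high, others 0.241 to 1.17 CPM). Ascending library 2 stood apart for HOXA10 at 0.185 CPM (high, others 0.0604 to 0.0627 CPM) and SLC6A8 at 212 CPM (high, others 161 to 164 CPM). Ascending library 3 stood apart for KCNA2 at 4.84 CPM (high, others 2.32 to 2.59 CPM). Ascending library 4 stood apart for ATP1B1 at 65.8 CPM (low, others 117 to 121 CPM), HOXA9 at 0.362 CPM (high, others 0.0605 to 0.0627 CPM), HOXD4 at 11 CPM (high, others 1.25 to 1.51 CPM), SEMA3C at 87.6 CPM (low, others 221 to 235 CPM), HOXC9 at 0.0604 CPM (high, others 0 CPM each), HOXD8 at 6.16 CPM (high, others 0.864 to 1.25 CPM) and TENM3 at 7.36 CPM (high, others 4.2 to 4.6 CPM). Ascending library 4 accounted for 7 of these and suprarenal library 3 for 5. For HOXC9, HOXD10 and MYH6 in the groups whose other libraries were at 0, any count meets this test, and for HOXC9 and MYH6 it was 1 count. The ascending flags of HOXA9 and HOXA10 rest on 9 and 6 counts in all 4 libraries.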

How the results depend on the processing

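Of 2882 values for 103 genes named in the text under 28 other settings, 2355 kept their direction and side of the threshold, 517 kept their direction but did not pass, 8 newly passed and 2 changed sign. The changes of sign were FBN1 (0.017) and NTN4 (0.036) with the suprarenal region alone against the thoracic regions. The abdominal against thoracic count of 336 was 650 with DESeq2, 546 with a replicate block (204 higher and 342 lower), 920 without the 3 libraries that stood apart, 55 with a minimum log2 change of 1, 48 with 2 groups of 8, 74 against the descending region alone and 11 for the suprarenal region alone. It ranged from 214 to 497 when 1 library was left out, and from 307 to 360 under other scalings, filters and limma voom. The infrarenal against suprarenal count of 32 was 84 with the block, 52 with library totals, 51 without the filter, 167 with DESeq2, 241 without the 3 libraries and 3 to 52 without 1 library. The descending against ascending count of 18 was 62 with the block, 177 with DESeq2, 141 without the 3 libraries and 7 to 34 without 1 library. The suprarenal against descending count was 0 with edgeR in every setting tried and with DESeq2. The cause was not tested, beyond fewer samples or a stricter test where the setting says so. The labels do not say what a replicate number marks. Deviations from the region means correlated above 0.1 in 19 of 24 same-numbered pairs (range -0.173 to 0.575). The block was left out of the reported fit because the labels do not say that a number marks an animal. However, 15 of 16 libraries correlated best with their own number, so same-numbered libraries shared structure that the reported fit and its p-values do not model. With the replicate block, NR2F2, PTGER2 and HOXA6 did not pass (adjusted p = 0.0508, 0.0598 and 0.0563). Differences in genes with few counts, such as HOXD10 and MYH6, are limited by depth.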
